A study of Homo sapiens with 12 samples.

Results

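MIR3648-1 (gene ID 100500862) and MIR3687 (gene ID 100500815) are microRNA genes whose hairpins lie in the transcribed spacer of ribosomal DNA. They are 2 of the 5759 genes in the authors' deposited table, and were taken from it by gene ID. They were selected on their measured log2 fold changes against the vehicle control, known to be high in all 3 comparisons of that table, so these values are given as a description and carry no test here. The cells are MOLT4, an established human T lymphoblast line from an acute lymphoblastic leukaemia, wild type per the labels. The 12 samples form 4 groups of 3. The controls received DMSO for 6 h, a group was exposed to compound 955 at 0.1 µM for 1 h and another for 6 h, and the last to SNS-032 at 1 µM for 6 h. SNS-032 inhibits cyclin-dependent kinases, CDK9 among them. The submitters call it the warhead of 955, and the series is titled for piperlongumine conjugates that bring about protein degradation. The doses of the compounds differ, and no vehicle group was collected at 1 h.

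RNA polymerase I transcribes each ribosomal DNA repeat into a long precursor, the 45S pre-rRNA, which holds the 18S, 5.8S and 28S rRNAs between spacers. The external spacer at the 5′ end is cut away with the help of the U3 small nucleolar RNA particle and the small-subunit processome, and its pieces are normally degraded by the nuclear exosome and the exonuclease XRN2, so spacer RNA is short-lived. MIR3648 and MIR3687 are annotated as hairpins inside this spacer. Reads assigned to them can come from the precursor or from its cut pieces as well as from a hairpin, and an RNA library of this kind does not count mature microRNAs.

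In the build GRCh38, RefSeq places MIR3648-1 at chr21:8208473-8208652, 180 bases long and wholly inside the 45S pre-rRNA gene RNA45SN2 (chr21:8205988-8219302). It covers bases 2486 to 2665 of that unit, whose 5′ external spacer is 3643 bases long and ends where the 18S gene RNA18SN2 begins. For MIR3687, GENCODE places a copy named MIR3687-1, 61 bases long, at chr21:8208844-8208904, bases 2857 to 2917 of the same unit and 191 bases downstream of MIR3648-1. From there to the 18S gene are 726 bases. A second pair, MIR3648-2 (chr21:8986999-8987178) and MIR3687-2 (chr21:8987370-8987430), has the same distance of 371 bases from start to start as the first. All 4 are on the plus strand in GENCODE. The reference tables do not pair gene ID 100500815 with either copy of MIR3687, and 5 separate 45S units are annotated, so the rows may hold reads from several copies of near-identical sequence.

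**Figure D1:**
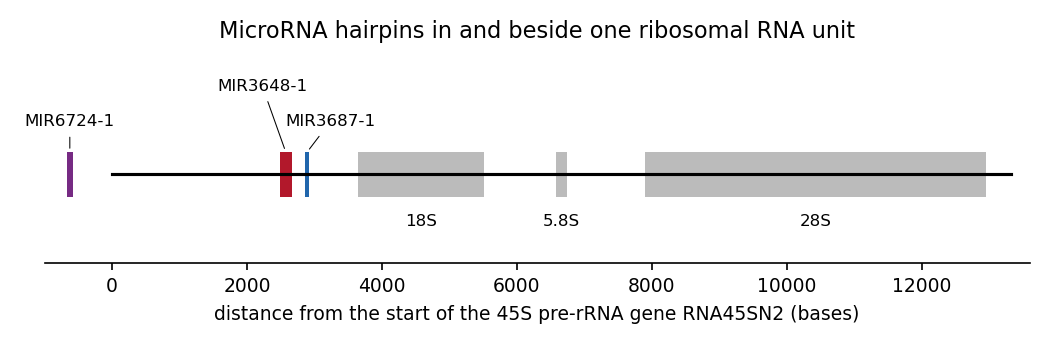
Map of one 45S pre-rRNA unit; the horizontal axis is the distance in bases from the start of RNA45SN2, grey boxes are the mature rRNAs and coloured boxes the microRNA hairpins. MIR3648-1 and MIR3687-1 sit 191 bases apart in the 5′ external spacer, and MIR6724-1 lies 581 bases upstream of the unit.

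The mature sequences show the base composition of this region. They are RefSeq's for GRCh38.p14, written 5′ to 3′, with the seed (bases 2 to 8, which pair with targets) in capitals. The first is the product of MIR3648, read from the entry of MIR3648-2 (chr21:8987026-8987046, plus strand). The others are neighbours in or beside ribosomal DNA units on chromosome 21, from the entries of MIR6724-2 (chr21:8249515-8249537) and MIR10396A (chr21:8987617-8987635), both on the plus strand.
hsa-miR-3648: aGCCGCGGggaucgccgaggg
hsa-miR-6724-5p: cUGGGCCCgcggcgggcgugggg
hsa-miR-10396a-5p: gGCGGGGCucggagccggg
The GC content is 81.0% for miR-3648, 91.3% for miR-6724-5p and 89.5% for miR-10396a-5p, against a median of 52.2% over 2370 mature human microRNAs. Of these, 2.83% reach the GC content of miR-3648. The 3 seeds differ from each other, and the seed of miR-3648 (GCCGCGG) is shared with 0 other mature microRNAs of the table. MIR6724 and MIR10396A are not analysed here.

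Both genes rose in every comparison. In the authors' deposited table, MIR3648-1 had a log2 fold change of 6.02 after 1 h of 955, 6.98 after 6 h of 955 and 7.95 after 6 h of SNS-032. As ratios these are 64.9, 126 and 248 times the DMSO level. The deposited FDR values were 2.25e-05, 1.37e-07 and 4.2e-08. Standard errors were implied from each fold change and its deposited F statistic, with F taken as the squared ratio of fold change to error. That reading of F is an assumption that was not checked, and every interval and contrast below rests on it. The implied standard errors were 0.48, 0.49 and 0.50. The 95% intervals from them ran from 4.98 to 7.06, from 5.92 to 8.04 and from 6.87 to 9.04. As ratios these are 31.5 to 134, 60.4 to 263 and 117 to 525 times the control. The value was lowest at 1 h of 955 and highest with SNS-032, and each interval overlaps the next.

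MIR3687 moved alike with smaller values. Its log2 fold changes in the authors' deposited table were 5.74 after 1 h of 955, 6.49 after 6 h of 955 and 7.24 with SNS-032, which are ratios of 53.3, 90.1 and 152. The deposited FDR values were 5.61e-10, 1.03e-12 and 1.75e-13. The implied standard errors were narrower than for MIR3648-1, at 0.34, 0.35 and 0.36, with 95% intervals from 5.02 to 6.45, from 5.77 to 7.21 and from 6.51 to 7.98. Its F statistic of 277 after 1 h of 955 was the highest of all listed genes in that comparison of the authors' deposited table, followed by the 158 of MIR3648-1. MIR3648-1 exceeded MIR3687 by 0.28 after 1 h, 0.48 after 6 h of 955 and 0.71 with SNS-032 on the log2 scale, differences that lie within the overlap of their intervals and were not tested.

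The threshold used below was an FDR under 0.05 together with a log2 fold change of at least 1 in either direction. Both genes were past it, higher, in each comparison. Of all listed genes, 0.729% were past it and higher after 1 h of 955, 35.2% after 6 h of 955 and 37.8% with SNS-032. The rule used these contrasts, so nothing is read from the count. The deposited table holds only genes with an FDR under 0.05 in some comparison. Whether a fold bound was also part of that filter is not stated in the sources used here. Every listed gene of the gene lists below was past the threshold, FDR and fold bound together, in some comparison. If the filter had that bound, the threshold used here is the filter itself. Shares of listed genes, here and below, are raised by the filter and are not shares of all expressed genes. The 1 h values compare 955 at 1 h with DMSO at 6 h, so treatment and time in culture cannot be told apart there. In RNA from whole cultures, more cells holding a transcript and more of it per cell cannot be told apart either.

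**Figure D2:**
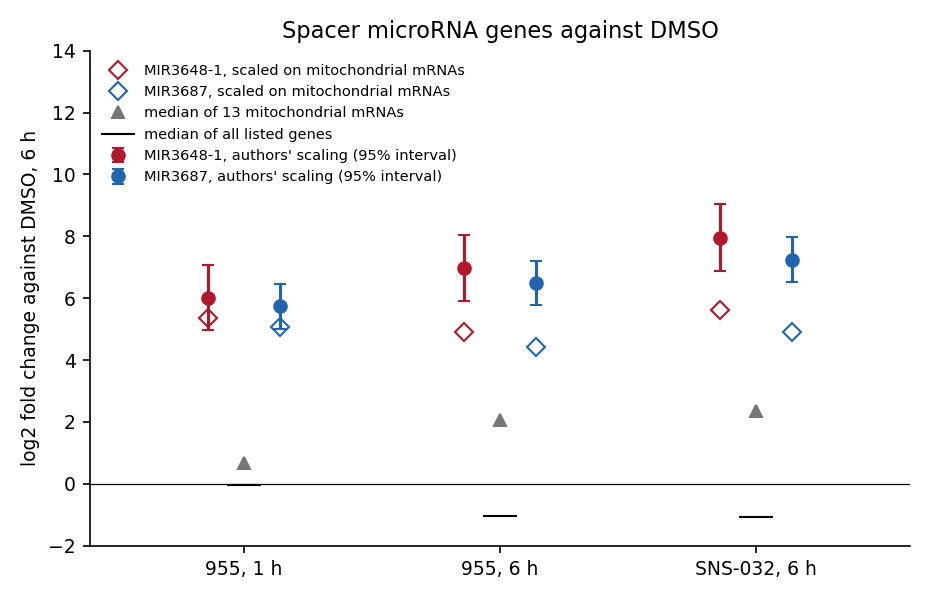
Log2 fold change against DMSO (vertical axis) of MIR3648-1 (red) and MIR3687 (blue) in the 3 comparisons; filled points with bars are the authors' values with 95% intervals from the implied standard error, and open diamonds the values after scaling on mitochondrial mRNAs. Both genes lie between 5.74 and 7.95 under the authors' scaling and between 4.42 and 5.61 under the other, while the median of all listed genes lies between -1.07 and -0.05.

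The fold changes rest on a control level near 0. The average level over all samples was 4.39 (log2 CPM, counts scaled to the library total) for MIR3648-1 and 3.64 for MIR3687 in the authors' deposited table, against a median of 4.15 over the listed genes. Values per sample were not used, but the average and the 3 fold changes together imply a level for each group. If the average is the log2 of the mean CPM, MIR3648-1 was at 0.190 CPM in DMSO, 12.4 after 1 h of 955, 24.0 after 6 h of 955 and 47.2 with SNS-032. MIR3687 was then at 0.169, 8.99, 15.2 and 25.6 CPM. If the average is instead the mean of logs, a reading added after the data were seen, the DMSO levels are 0.555 and 0.427 CPM and the SNS-032 levels 138 and 64.8. Under both readings, each gene was under 1 CPM in DMSO and at 8.99 CPM or more in every treated group. A ratio to so low a level depends on how the authors' model treats small counts, which is not given in the sources used here. CPM is not a value per length, so the levels of the 2 genes are not compared.

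**Figure D3:**
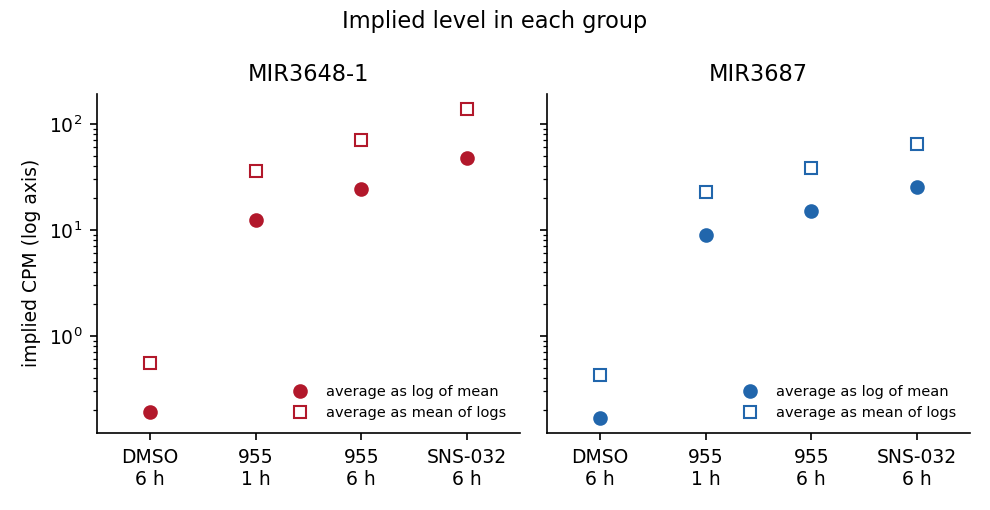
Implied CPM (log axis) of each gene in the 4 groups, filled circles for an average read as the log of the mean and open squares for a mean of logs; there are no values per sample and no error bars. Each gene is under 1 CPM in DMSO and at 8.99 CPM or more in the treated groups.

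Most of the log2 rise was present after 1 h. For MIR3648-1 the 1 h log2 fold change was 86.3% of that at 6 h of 955, and its 1 h ratio 51.6% of the 6 h ratio. For MIR3687 these shares were 88.3% and 59.2%. The further step from 1 h to 6 h of 955 was 0.96 for MIR3648-1, with a standard error of 0.48, a 95% interval from -0.10 to 2.01 and an adjusted p of 0.0818. For MIR3687 it was 0.76, with a standard error of 0.35, an interval from 0.04 to 1.47 and an adjusted p of 0.0468. Neither gene was past the threshold in this contrast, in which 62.7% of listed genes were (adjusted p under 0.05 and a difference of at least 1). Without the bound on the difference, MIR3687 was past it and MIR3648-1 was not, where 84.7% of listed genes were. That call ends with a standard error that treats the controls of the 2 comparisons as separate (adjusted p 0.162 for MIR3687 and 0.215 for MIR3648-1). The contrast did not choose the genes, but it is made of the fold changes that did. It is approximate: the difference of the 2 fold changes, with the root mean square of their implied standard errors and Benjamini-Hochberg adjustment over all listed genes.

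The direction and size of that step depended on the scaling. The 13 mRNAs of the mitochondrial genome, transcribed by the mitochondrial polymerase, had median log2 fold changes, from the authors' deposited table, of 0.67 after 1 h of 955, 2.07 after 6 h and 2.35 with SNS-032. Centred instead on the median of all listed genes, MIR3648-1 was at 6.07, 8.0 and 9.02 and MIR3687 at 5.79, 7.52 and 8.31. Scaled on the mitochondrial mRNAs, MIR3648-1 was at 5.35, 4.91 and 5.61, and MIR3687 at 5.06, 4.42 and 4.90. Both genes stayed past the threshold in every comparison, but 6 h minus 1 h of 955 became -0.44 for MIR3648-1 (adjusted p 0.428) and -0.64 for MIR3687 (adjusted p 0.0996). Centred on the median of all listed genes, a contrast added after the data were seen, it became 1.93 for MIR3648-1 (adjusted p 0.0033) and 1.73 for MIR3687 (adjusted p 0.000112), and both were past the threshold. That the rise against DMSO stayed past the threshold was fixed in advance by the size of the chosen values, and is no sign of robustness. The step from 1 h to 6 h was negative, positive and short of the threshold, or positive and past it, depending on the scaling.

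At 6 h both genes had lower values with 955 at 0.1 µM than with SNS-032 at 1 µM. The difference (955 minus SNS-032) was -0.98 for MIR3648-1, with a standard error of 0.49, a 95% interval from -2.05 to 0.09 and an adjusted p of 0.391. For MIR3687 it was -0.75, with a standard error of 0.35, an interval from -1.48 to -0.02, an unadjusted p of 0.0436 and an adjusted p of 0.318. Neither passed the adjustment over all listed genes, of which 1.11% were past the threshold in this contrast and 2.73% had an adjusted p under 0.05. The intervals allow anything from near equality to a level with SNS-032 about 4.14 times that with 955 for MIR3648-1, and 2.79 times for MIR3687, so the compounds are not shown to act alike on these genes. Under mitochondrial scaling the differences were -0.70 and -0.48.

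Set among all listed genes as a description, the 2 genes had the highest log2 fold changes of the table after 1 h of 955. The next were NUP210L, a gene for a nuclear pore protein, at 4.97 (FDR 0.000992), the small nucleolar RNA gene SNORD13 at 4.78 (FDR 0.0403) and RNU11, a small nuclear RNA of the minor spliceosome, at 4.77 (FDR 0.000771) in the authors' deposited table. All 3 had average levels of 1.92 (log2 CPM) or less. Of the 2879 listed genes above the median average level, MIR3648-1 had the highest value at 1 h, and the runner-up, the lncRNA gene LOC105371414, was at 2.01 in the authors' deposited table. That average includes the treated groups, and MIR3648-1 lies above the median only through them. Its implied DMSO level was 0.190 or 0.555 CPM by the reading of the average, so this rank does not set it apart from genes with low controls.

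At 6 h other genes rose more. With 955, 8 genes had a higher value than MIR3648-1, 5 of them small nuclear or small nucleolar RNA genes and 3 protein-coding. With SNS-032, 10 genes were above it, 9 of them small nuclear or small nucleolar RNA genes. The genes above MIR3648-1 at 6 h of 955 had a median of 2.73 at 1 h and a maximum of 4.97. Both are necessarily below its 6.02, the highest 1 h value of all listed genes. RNU4-2, a spliceosomal small nuclear RNA, had in the authors' deposited table -0.70 at 1 h (FDR 1) and 7.25 at 6 h of 955. Among the 66 genes past the threshold and higher by at least 4 (log2) after 6 h of 955, a bound set after the data were seen, the median 1 h value was 18.3% of the 6 h value on the log2 scale. MIR3687 and MIR3648-1 had the highest shares, and NUP210L was the third with 65.5%. These shares are made of the values that chose the 2 genes, so they are a description only.

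**Figure D4:**
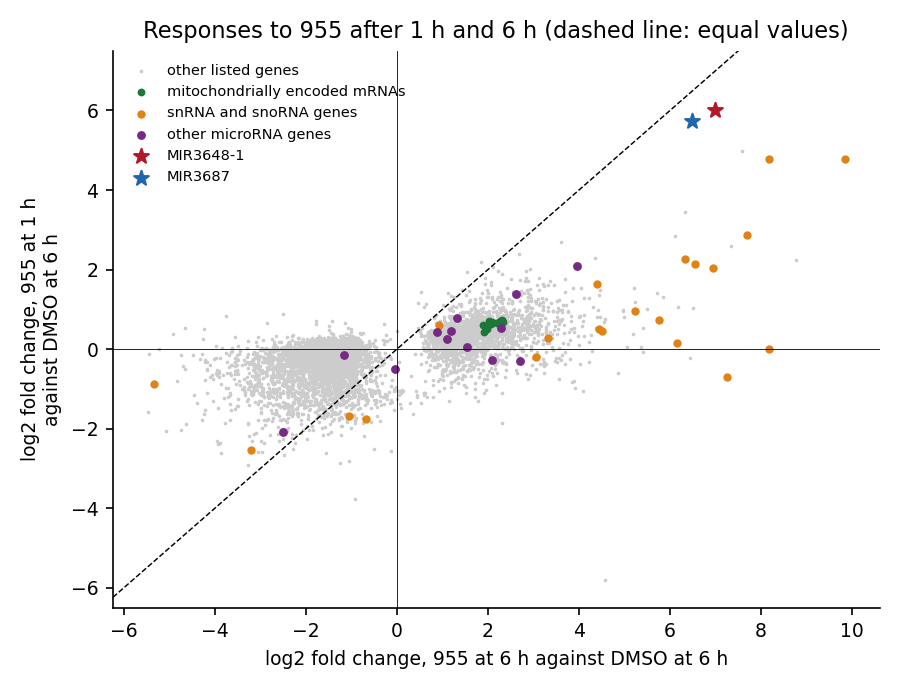
Log2 fold change after 1 h of 955 (vertical axis) against that after 6 h of 955 (horizontal axis), both against DMSO at 6 h, one point per listed gene; stars are MIR3648-1 and MIR3687, and the dashed line marks equal values. The stars lie at 6.02 and 5.74 on the vertical axis, above every other gene, and nearer to the line than the small nuclear and small nucleolar RNA genes on the right.

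By Euclidean distance over the 3 log2 fold changes, each of the 2 genes was the other's nearest of all listed genes, at 0.905. The next nearest to MIR3648-1 was RNU11 at a distance of 2.79, and to MIR3687 the readthrough lncRNA gene SEPT5-GP1BB at 2.31. NUP210L and the unnamed gene ID 105377808 were also among the 5 nearest of both. These values share the DMSO samples, so they describe likeness in these 12 samples only. When each log2 fold change was divided by its standard error, LOC105371414 came nearest to both genes, and MIR3648-1 kept 0 and MIR3687 kept 1 of the 5.

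Other microRNA genes had smaller values. Of 13 others in the table, 0 were past the threshold after 1 h of 955, where 8.44% of all listed genes were (0.729% higher and 7.71% lower), and their median log2 fold change was 0.25. At 6 h of 955, 9 were higher and 2 lower, with a median of 1.32, beside 35.2% higher and 50.1% lower of all listed genes. With SNS-032, 9 were higher and 2 lower, with a median of 1.36, beside 37.8% and 52.5%. In either direction 84.6% of the 13 were past the threshold with each compound, near the 85.3% of all listed genes with 955 and the 90.2% with SNS-032. Under mitochondrial scaling the medians at 6 h turned to -0.75 and -0.99, so their direction depended on the scaling. No contrast with MIR3648-1 and MIR3687 is drawn from this, because their values were chosen as high and the scaling could not reverse them. The authors' deposited table has MIR378I highest at 6 h, with 2.09 at 1 h (FDR 0.0921), 3.95 at 6 h of 955 and 3.56 with SNS-032. Its 1 h value had a standard error of 0.68, at an average level of 0.40 (log2 CPM). That value is necessarily below those of the 2 spacer genes, the highest of all listed genes at 1 h.

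Several of these genes lie within other genes, as the spacer genes lie within the 45S gene. MIR378I overlaps TNFRSF13C, which the authors' deposited table has at 2.45 for 6 h of 955, and MIR324 (2.70) overlaps ACADVL, a mitochondrial acyl-CoA dehydrogenase gene, at 2.03. MIR6840 (2.28) overlaps the readthrough gene STAG3L5P-PVRIG2P-PILRB at 2.06, and MIR3186 (2.08) overlaps BAHCC1 at 1.23. MIR3654 went the other way from its neighbour, at 0.88 against -1.77 for CHCHD3. In the authors' deposited table, 6 h of 955 took MIR548AR to 2.62, MIR3916 to 1.54, MIR3064 to 1.32, MIR1244-2 to 1.19 and MIR4426 to 1.10. MIR25, of the MIR106B cluster inside MCM7, fell to -2.50 with 955 and -2.36 with SNS-032. MIR142, a microRNA gene of blood cells, was at -0.05 with 955 (FDR 1) and fell to -2.02 with SNS-032. MIR1914 was at -1.15 with 955 (FDR 0.0478) and at 0.66 with SNS-032 (FDR 0.31). Of 9 listed microRNA host transcripts, only MIR181A1HG was past the threshold at 1 h, with 2.69 (FDR 0.0259), where 8.44% of all listed genes were. At 6 h of 955, 4 of the 9 were higher and 2 lower, beside 35.2% and 50.1% of all listed genes. With SNS-032, 4 were higher and 5 lower, beside 37.8% and 52.5%.

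The genes that make the spacer, those that remove it and those that process hairpins were read from lists of names. Of the RNA polymerase I machinery, 17 of 28 genes were in the table. After 1 h of 955, 0 of the 17 were past the threshold and their median was -0.08, beside -0.05 over all listed genes. After 6 h of 955, 14 were lower and 1 higher with a median of -1.60, beside -1.03 over all listed genes, of which 50.1% were lower. With SNS-032, 15 were lower and 1 higher with a median of -1.44, beside -1.07 and 52.5%. Centred on the median of all listed genes, 4 of the 17 were lower and 1 higher at 6 h of either compound. UBTF, which marks active ribosomal DNA, fell to -2.24 at 6 h of 955 and to -2.31 with SNS-032 from a 1 h value of -0.03 (authors' deposited table). RRN3, the initiation factor that recruits the polymerase, fell to -1.71 with 955 (FDR 0.0103) and was at -1.17 with SNS-032 (FDR 0.0792).

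Of the polymerase subunits, POLR1A, the largest, fell in the authors' deposited table to -1.81 with 955 and to -1.73 with SNS-032. POLR1B, the second largest, fell to -2.67 and -2.59, POLR1C to -1.85 and -1.08, POLR1E to -2.10 and -2.60, and POLR1G to -3.07 and -4.38. POLR1F was at -0.93 with 955, short of the fold bound, and fell to -1.37 with SNS-032. The lowest 2 of the list after 6 h of 955 were thus POLR1G and POLR1B. The highest were TAF1C, a subunit of the promoter selectivity factor, which rose to 1.05 and 1.16, and POLR1F. TAF1C was lower under mitochondrial scaling, as were all 17.

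The spacer removal list split by kind of gene. Of the genes for its protein parts, 47 of 61 were listed, and 43 were lower and 0 higher after 6 h of 955, with a median of -1.60. With SNS-032, 44 were lower and 0 higher, with a median of -1.46. In either direction these are 91.5% and 93.6% of the 47, near the 85.3% and 90.2% of all listed genes, of which 50.1% and 52.5% were lower. After 1 h, 2 were lower, UTP3 at -1.37 (FDR 0.000187) and IMP3, a U3 particle protein, at -1.23 (FDR 0.000199) in the authors' deposited table, and the median was -0.17. The lowest after 6 h of 955 were NGDN at -3.98 and UTP14A at -3.52, both factors of small-subunit assembly, and EXOSC3 and EXOSC4, core subunits of the exosome, were at -3.21 and -3.26. The highest were C1D, an exosome cofactor, at -0.30 (FDR 0.387) and EXOSC6, a core subunit, at -0.67 (FDR 0.0237), short of the fold bound. Centred on the median of all listed genes, an alternative added after the data were seen, 15 of the 47 were lower and 0 higher after 6 h of 955, and 12 were lower and 0 higher with SNS-032.

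The U3 RNA genes rose at 6 h. All 5 (SNORD3A, SNORD3B-1, SNORD3B-2, SNORD3C and SNORD3D, near-identical copies whose reads may be shared) were higher after 6 h of 955, with a median of 6.55, and with SNS-032, with a median of 8.11. SNORD3A had an average level of 4.73 (log2 CPM). The others were at only 0.11 to 1.44, with standard errors of 0.68 to 1.27 at 6 h, so the medians rest on genes with few reads. Of all listed genes, 35.2% were higher with 955 and 37.8% with SNS-032. At 1 h, 0 of the 5 were past the threshold, beside 8.44% of all listed genes, and the median was 0.97. With 5 genes, nothing is read from that count. Centred on the median of all listed genes, 2 of the 5 were past it at 1 h, both higher, where 9.76% of all listed genes were past it. SNORD3A was in the authors' deposited table at 0.97 after 1 h (FDR 0.00931), 5.22 at 6 h of 955 (FDR 2.56e-14) and 7.0 with SNS-032 (FDR 6.43e-16). At 1 h it was 5.05 below MIR3648-1 on the log2 scale and at 6 h of 955 it was 1.76 below. The 10 listed small nuclear RNA genes behaved likewise, with medians of 0.62, 5.13 and 7.38, and 1 of 10 past the threshold at 1 h (RNU11) against 10 of 10, all higher, at 6 h of either compound. Past the threshold in either direction at 6 h were 85.3% of all listed genes with 955 and 90.2% with SNS-032.

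**Figure D5:**
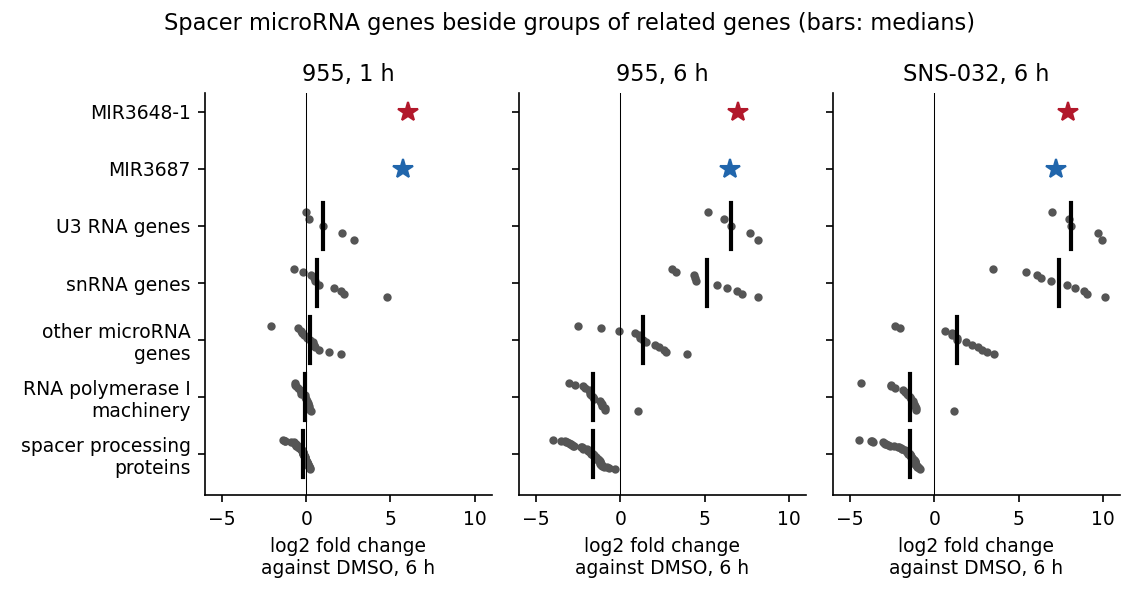
Log2 fold change against DMSO (horizontal axis) in the 3 comparisons for MIR3648-1 and MIR3687 (stars) and for the listed members of 5 gene groups (dots, with a bar at the median). At 1 h the stars lie at 6.02 and 5.74 while the medians of the groups lie between -0.17 and 0.97.

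Of 17 genes of microRNA processing, 2 were in the table. DGCR8, which binds hairpins with the nuclease DROSHA, was in the authors' deposited table at 0.01 after 1 h, -1.09 at 6 h of 955 and -1.21 with SNS-032. TARBP2, a partner of DICER1, was at -0.08, -1.45 and -1.32. Both passed the threshold at 6 h, as did 85.3% of all listed genes with 955 and 90.2% with SNS-032, and neither at 1 h, where 8.44% did. The count is thus near the background, which the filter of the deposited table raises, and nothing is read from it. Centred on the median of all listed genes neither passed at any time. No nuclear rRNA gene is analysed here. The authors' deposited table has the mitochondrial rRNA genes RNR1 and RNR2 at 0.73 and 0.68 after 1 h, 2.20 and 2.13 at 6 h of 955 and 2.49 and 2.45 with SNS-032. They were within 0.15 of 0 under mitochondrial scaling.

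The labelled cell type was checked on markers. Of 23 T-lineage markers, 8 were in it, with average levels from 3.74 (RAG2) to 10.14 (ZAP70) in log2 CPM. Of 18 markers of other blood cells, 4 were in it, at 0.89 to 3.94. The table holds only genes that passed an FDR of 0.05 somewhere among the 3 comparisons, so a marker's absence from the table says nothing of its level. The depth of each sample is unknown. The library kit is named for mRNA, and whether it selected polyadenylated RNA is not given in the sources used here.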

How the data were processed

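RNA-seq libraries were made from column-extracted total RNA with an mRNA library kit, per the labels' protocols. The submitters' processing notes name the build hg38 and DESeq2, with no role. The aligner, counter, strand use, annotation and filters are not given in the sources used here. Per the file headers, the authors deposited a table of 3 comparisons each giving per gene the log fold change, average log CPM, F statistic (a score), p-value and FDR. The deposited log fold changes were taken to be log2. The average level deposited by the authors is the same in all comparisons. Deposited p-values and FDR were used as given. Nothing in the labels says that replicates were separate cultures, so p-values may measure technical spread. Depth per sample is unknown.

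Each gene's denominator degrees of freedom (11.9 for MIR3648-1, 23.3 for MIR3687) were solved from F and p. The contrasts of treated groups used a t distribution with these degrees of freedom, and assume a spread common to the groups. They were tried on simulated normal log2 values with the same spread in every group. That trial does not cover low counts, such as those of the 2 genes in DMSO. Its F was built as the squared ratio of fold change to error, so it could not check that reading of the deposited F. Scaled values were tested in the same way. Python 3.11.15, SciPy 1.17.1 and pandas 2.3.3 were used. Of 5759 gene IDs, 5727 matched RefSeq (GRCh38.p14). Positions came from RefSeq and GENCODE 29, both on GRCh38.

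The genes and lists were chosen with earlier results of these data known. Genes were named by rule: the 2 spacer genes, every other listed microRNA gene, the 2 highest and 2 lowest genes and preset members of the polymerase I and spacer removal lists, the 5 genes nearest to each spacer gene, and the 5 highest at 1 h. Others named were chosen after their values were seen. Alternatives were other thresholds, scalings, standard errors and distances.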

Additional observations from a re-analysis of the deposited data

Results flagged for a closer look

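For MIR3687 the 955 values at 6 h and 1 h lay 0.76 apart on the log2 scale, with an adjusted p of 0.0468 over all listed genes in the approximate contrast. The difference is made of the fold changes that chose the gene and is under the fold bound. It had an adjusted p of 0.162 when the controls were treated as separate, and was -0.64 under mitochondrial scaling and 1.73 when centred on the median of listed genes.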

How the results depend on the processing

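Of 28 values of MIR3648-1 and MIR3687 under alternative scalings and standard errors, 24 kept their direction and their side of the threshold. Much of this was fixed in advance. The fold changes against DMSO were chosen as high and lie far above the bound. Another standard error leaves a difference between treated groups unchanged, and these differences were all under the bound. The count is therefore not a measure of robustness. The other 4 were the contrast of 6 h with 1 h of 955, which reversed to -0.44 for MIR3648-1 and -0.64 for MIR3687 under mitochondrial scaling, and passed the threshold at 1.93 and 1.73 when centred on the median of listed genes. Mitochondrial scaling also reversed the medians of the other microRNA genes at 6 h, to -0.75 with 955 and -0.99 with SNS-032. Genes past the threshold after 1 h of 955 numbered 486, or 48 with a bound of 2, 958 with no bound and 1782 under mitochondrial scaling. After 6 h of 955 they numbered 4911, or 1622 with a bound of 2 and 3188 centred on the median of listed genes. With SNS-032 they numbered 5196, or 1853 and 3308 under the same alternatives. Between the compounds they numbered 64, or 8 if the errors are summed as though the controls were separate and 181 under mitochondrial scaling. The split of higher and lower genes also moved: 42 and 444 at 1 h, 2026 and 2885 at 6 h of 955 and 2175 and 3021 with SNS-032 under the authors' scaling became 16 and 1766, 142 and 3825, and 116 and 4151 under mitochondrial scaling. Centred on the median of listed genes, an alternative chosen after seeing the data, they became 99 and 463, 2364 and 824, and 2371 and 937. No paired analysis was possible because the table holds comparisons and no values per sample, and for the same reason no replicate could be left out. Other than the changes that the bounds make by construction, the cause was not tested. Depth is unknown, so the precision of the low DMSO levels cannot be given.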
